A study of Mus musculus with 9 samples.

Results

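Glucocorticoid-responsive genes were followed through the cell classes of the mouse retina. The set was chosen by name and holds 10 genes of the 37725 in the expression matrix, namely Fkbp5, Tsc22d3, Sgk1, Klf9, Zbtb16, Ddit4, Errfi1, Nr3c1, Cdkn1a and Fam107a. All 10 were found. They were selected with earlier results of these mice in view, and Fkbp5 was already known to differ between the mice in Müller glia, so its values there are given as a description. UMIs (unique molecular identifiers, 1 for each captured RNA molecule) were summed over the cells of each class in each mouse and divided by all UMIs of that class and mouse and scaled to CPM (counts per 1000000).

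The mice carried floxed miR-204 and miR-211 and a tamoxifen-inducible Cre under the RPE65 promoter, which is active in the retinal pigment epithelium (RPE), written RPE65-ERT2-Cre in the labels, and both groups had this genotype (miR-211fl, miR-204fl). The 4 control mice, S01 to S04, received corn oil, and the 5 dKO mice, S05 to S09, received 75 mg/kg tamoxifen in corn oil, on 5 days from postnatal day 28. Retinas were taken at a time labelled 6 months, dissociated with papain, fixed and barcoded by split pooling, and RPE cells were among the cells recovered. Cre acts in RPE cells, so the other classes carry the alleles undeleted by design, and tamoxifen itself differed between the groups. The deleted microRNAs were not read by this assay. The labels give 1 animal number to both S06 and S07, which were kept as separate mice.

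Glucocorticoids bind the glucocorticoid receptor, encoded by Nr3c1, which is held in the cytoplasm by a chaperone complex and moves to the nucleus once the hormone is bound. There it binds DNA as a dimer at palindromic response elements and raises a set of genes that is partly shared between tissues and partly specific to each. Fkbp5 encodes a co-chaperone that lowers the affinity of the receptor for hormone and is itself induced, which closes a short feedback loop. In the retina, Müller glia, the radial glia that span its layers, are a well-known site of the receptor.

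The response element was searched around the genes, because it is the sequence through which the receptor acts on them directly. The full palindrome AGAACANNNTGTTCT, which reads the same on both strands, occurred within 50000 bases of the start of the canonical transcript of 3 of the 10 genes, against 448 of 21757 protein-coding genes (2.06%) in windows of the same length in GRCm39. The sites of these 3 genes are shown 5′ to 3′ on the strand of the gene, with the half-sites in capitals.

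Fkbp5: gtttgAGAACAgctTGTTCTaggct
Sgk1: cggaaAGAACAgaaTGTTCTcggag
Ddit4: agctgAGAACAttgTGTTCTggctc

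The Fkbp5 site lies in an intron, 43752 bases after the start, at chr17:28661388-28661412. The site of Sgk1 is 958 bases before the canonical start at chr10:21869595-21869619, outside the canonical transcript but inside the annotated span of the gene. The site of Ddit4 is 22440 bases before the start at chr10:59810090-59810114, outside the gene. In the RefSeq promoters (GRCm38.p6, 300 bases each) the looser core GNACANNNTGTNC, also its own reverse complement, was found for 2 of the 8 members with a promoter, against 145 of 27025 genes (0.537%). One of these was the Sgk1 site above, at position -188 from the start used in that table, which differs from the canonical one. The other was in the promoter of Fam107a, shown with the fixed bases of the core in capitals.

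Fam107a: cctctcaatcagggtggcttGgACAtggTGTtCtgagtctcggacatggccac

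A match of letters describes the sequence and does not show that the receptor binds there. The 5p strands of the 2 deleted microRNAs share the seed at bases 2 to 8, in capitals here.

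miR-204-5p: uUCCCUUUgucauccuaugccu
miR-211-5p: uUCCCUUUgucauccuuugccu

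The reverse complement of the seed occurred in the annotated 3′ UTR of 1 of the 10 genes, Nr3c1, with 3 matches, and in 3349 of 20858 genes with a 3′ UTR (16.1%).

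In the GRCm39 genome (GENCODE), Fkbp5 (ENSMUSG00000024222) spans chr17:28618058-28737521 on the minus strand, Zbtb16 (ENSMUSG00000066687) chr9:48563141-48748664 on the minus strand, and Sgk1 (ENSMUSG00000019970) chr10:21758083-21875802 on the plus strand. Fam107a (ENSMUSG00000021750) lies at chr14:14151750-14173507 on the plus strand and Errfi1 (ENSMUSG00000028967) at chr4:150938376-150955402 on the plus strand.

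Of 31089 cells, 25630 passed the marker gate of exactly 1 of 13 classes, 1788 passed several and were left out, and 3671 passed none. The classes were rebuilt from marker UMIs and are not those of the study. The gate held 2036 Müller glia, 316 RPE cells and 15910 rods. Depth was between 15079143 and 66528160 UMIs per mouse. S04, S05 and S07 stood apart, with medians of 4775 to 5412.5 UMIs per cell against 8118 to 10340 in the other 6 mice, with 71.7% to 85.4% rods against 33.2% to 46.1%, and with 17, 28 and 51 Müller glia against 267 to 370. They were also the mice with Y-linked RNA and little Xist, 1 of them control and 2 dKO. RPE cells numbered 10 or more in 3 control and 4 dKO mice. The 12 of S07 held 548 CPM of Xist from 21 UMIs and 78.3 CPM of Uty from 3 UMIs. S07 Müller glia held 46.7 and 215.5 CPM, so the RPE values of S07 may not be of that mouse alone. The source of the Xist RNA was not tested. Markers of rods made up 0.0199% to 0.0503% of the UMIs in Müller glia over all mice. Endothelial markers made up more, 0.227% to 0.298%, against 0.850% to 0.994% in endothelial cells. One of them, Flt1, was also among the 10 genes most raised in Müller glia over the median class. The part of endothelial RNA in the Müller glia values was not tested. Fibroblast markers were highest in S02 Müller glia, at 0.00705% against 0.000297% to 0.00443% in the other mice, and at 0.413% in the fibroblasts of S02. Cone bipolar markers were also highest in S02 Müller glia, at 0.0171%, against 0.00387% to 0.0118%. Nothing in the labels gives the mice a shared litter or day, and p-values measure the spread between these mice.

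Each gene had its own distribution over the cell classes, described here from the medians over mice in the 11 classes with at least 6 mice of 10 or more cells. Fam107a, an actin-associated stress protein, was at a median of 148 CPM in endothelial cells, 90.5 CPM in RPE and 58.6 CPM in Müller glia, and at 0.314 to 1.80 CPM in the 7 neuronal classes. Zbtb16, a zinc finger repressor, was at 596 CPM in endothelial cells, 509 CPM in fibroblasts and 163 CPM in Müller glia. Among neurons it was at 76.7 CPM in ganglion cells, 33.8 CPM in rod bipolar cells, 30.7 CPM in amacrine cells and 24.9 CPM in cone bipolar cells, against 5.62 CPM in rods and 3.84 CPM in cones.

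Sgk1, a kinase that regulates ion channels and transporters, was at 772 CPM in horizontal cells and 757 CPM in RPE, 174 CPM in rods and 6.68 CPM in Müller glia. In RPE it ranged from 465 CPM in S09 to 938 CPM in S01, so each of the 7 mice was above the highest rod value of 209.6 CPM. Cdkn1a, the cell cycle inhibitor p21, was at 70.5 CPM in endothelial cells and 51.7 CPM in fibroblasts, and at 1.93 CPM or less in every other class. Errfi1, a feedback inhibitor of the EGF receptor, was at 450 CPM in fibroblasts and 51.8 CPM in Müller glia, and Tsc22d3, which encodes the leucine zipper protein GILZ, at 113 CPM in endothelial cells and 12.6 CPM in Müller glia. Nr3c1 itself was at 356 CPM in endothelial cells, 314 CPM in rods and 249 CPM in Müller glia, and its lowest median was 37.0 CPM in ganglion cells.

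**Figure D1:**
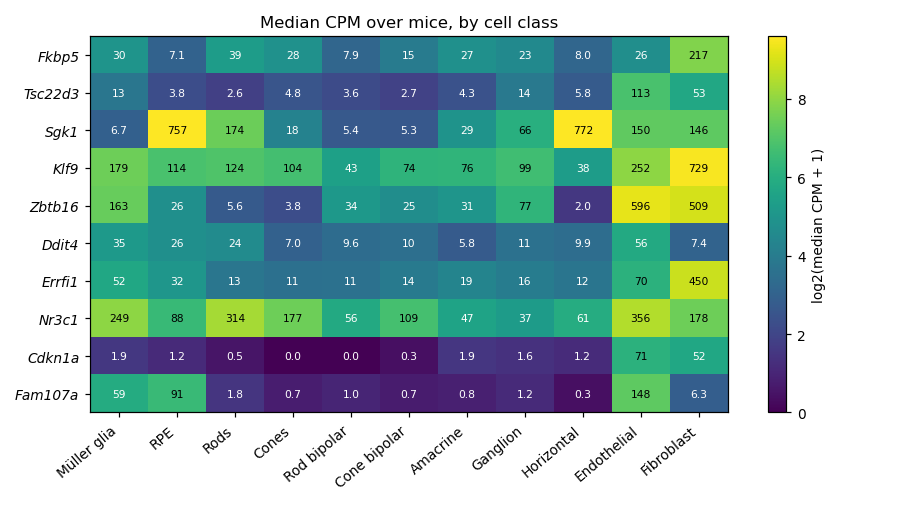
Median CPM over mice of the 10 genes (rows) in 11 cell classes (columns), coloured by log2(median CPM + 1) and printed in each cell. Sgk1 is highest in RPE and horizontal cells, Fam107a in endothelial cells, RPE and Müller glia, and Fkbp5 in fibroblasts.

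Fkbp5 was highest in fibroblasts at 217 CPM, followed by rods at 38.9 CPM, Müller glia at 30.5 CPM, cones at 27.6 CPM, amacrine cells at 26.8 CPM, endothelial cells at 25.9 CPM and ganglion cells at 22.6 CPM. Cone bipolar cells were at 14.8 CPM, horizontal cells at 7.96 CPM, rod bipolar cells at 7.89 CPM and RPE at 7.12 CPM. Fibroblasts exceeded rods in 6 of 6 mice by 2.62 on the log2(CPM + 1) scale (p = 0.0312 by an exact two-sided sign-flip test, the smallest possible with 6 mice; 0.108 adjusted over 100 comparisons). Over the 10 genes, 0 of these 100 comparisons of neighbouring classes passed after adjustment, which with 6 to 9 mice does not show that neighbours were alike. In 23 of the 100 the difference had 1 direction in every mouse. The classes were ordered by the medians of these same mice, so the direction came from the data compared. The p-values of neighbours and this count are therefore a description, and the count was not made over all genes. Sgk1 was higher in RPE than in rods in 7 of 7 mice by 2.14 ± 0.29 (SD), and Zbtb16 in ganglion cells than in rod bipolar cells in 8 of 8 mice by 1.21 ± 0.12, on the log2(CPM + 1) scale. Microglia, a further class with 10 or more cells in only 2 mice, held 1468 CPM of Fkbp5 in S02 from 138 UMIs in 14 cells, and 96.8 CPM in S06 from 8 UMIs.

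Müller glia and rods could be compared within each of the 9 mice. Of the 10 genes, 5 were higher in Müller glia and 2 lower after adjustment over the 10 comparisons (exact sign-flip test, two-sided). Only these 10 genes were compared in this way. The share of all genes that differ between Müller glia and rods was not computed, so the count marks no trait of the set. Zbtb16 was higher by 4.56 ± 0.63 (SD, n = 9) and Fam107a by 4.36 ± 0.34 on the log2(CPM + 1) scale, each in 9 of 9 mice with exact p = 0.00391, the smallest that 9 mice allow, and adjusted p = 0.00977. Errfi1 was higher by 1.67 ± 0.81 in 9 of 9 mice, with the same p-values.

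Tsc22d3 was higher in Müller glia by 1.78 ± 1.61 in 8 of 9 mice (exact p = 0.0195, adjusted 0.0326), and Klf9, a transcription factor of the Krüppel-like family, by 0.66 ± 0.69 in 7 of 9 (exact p = 0.0273, adjusted 0.0391). Sgk1 was lower by 4.14 on the same scale, with an SD of 0.85, in 9 of 9 mice (exact p = 0.00391, adjusted 0.00977), and Nr3c1 was lower by 0.36 with an SD of 0.23 in 8 of 9 (exact p = 0.00781, adjusted 0.0156). The calls of Tsc22d3 and Klf9 were lost when any 1 mouse other than S04 or S07 was left out (adjusted exact p of 0.0521 to 0.0781). Ddit4, an inhibitor of mTORC1 signalling, had a difference of 0.58 ± 0.96 (adjusted 0.126, exact test) and Cdkn1a 0.81 ± 0.96 (adjusted 0.0586, exact test). Without S04, the mouse with 17 Müller glia, both passed (adjusted exact p = 0.0434 and 0.0391), and Cdkn1a also passed without S07 (0.0488). For Fkbp5, given as a description, the difference was -0.25 with an SD of 1.41. This SD was larger than for 8 of the other 9 genes, and 4 mice lay above 0 and 5 below.

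In Müller glia, Fkbp5 was at 57.9 CPM in S01, 217 CPM in S02, 15.8 CPM in S03 and 30.5 CPM in S04 among control mice, and at 65.4 CPM in S05, 16.0 CPM in S06, 7.54 CPM in S07, 11.8 CPM in S08 and 54.7 CPM in S09 among dKO mice. The highest value was 28.8 times the lowest. The groups overlapped between 15.8 and 65.4 CPM, with S02 above all dKO mice and S07 and S08 below all control mice. Exact 95% Poisson intervals, which cover counting error only, were 203 to 232 CPM for S02 with 912 UMIs, 51.1 to 65.3 CPM for S01, 12.1 to 20.1 CPM for S03, 13.2 to 19.3 CPM for S06, 9.07 to 15.2 CPM for S08 and 48.5 to 61.5 CPM for S09. S04 and S07 rested on 6 and 5 UMIs, and their intervals were 11.2 to 66.3 CPM and 2.45 to 17.6 CPM.

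In rods of the same 9 mice Fkbp5 was between 30.8 and 43.0 CPM, in cones between 22.9 and 35.2 CPM, and in amacrine cells of 8 mice between 21.0 and 33.7 CPM. Among 6604 genes with a mean of at least 20 CPM in Müller glia, the SD of Fkbp5 over the 9 mice on the log2(CPM + 1) scale was 1.47 and ranked 99, against a median SD of 0.27. Without S04, S05 and S07 it was 1.57 and ranked 5, and Zbtb16 ranked 37 with 0.89. In rods Fkbp5 ranked 2547 of 6064 genes with an SD of 0.17. One cell held 8.88% of the Fkbp5 UMIs of S02, and the level of S02 without it was 207 CPM.

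Control mouse S02 was also high for Fkbp5 in several other classes. Its fibroblasts held 744 CPM, against 160 to 253 CPM in the other 5 mice measured, and its horizontal cells 46.0 CPM from 73 UMIs, against 5.12 to 11.9 CPM. Its 10 pericytes held 129 CPM from 8 UMIs, against 17.6 to 33.5 CPM in 4 mice. In endothelial cells S02 was at 84.4 CPM and S09 was the highest at 160.0 CPM, with the other 5 mice between 6.34 and 28.8 CPM. In RPE S02 was at 4.69 CPM from 5 UMIs, within the 1.21 to 26.1 CPM of the other 6 mice. Counts of Fkbp5 were low there, with 48 UMIs in all other mice together.

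**Figure D2:**
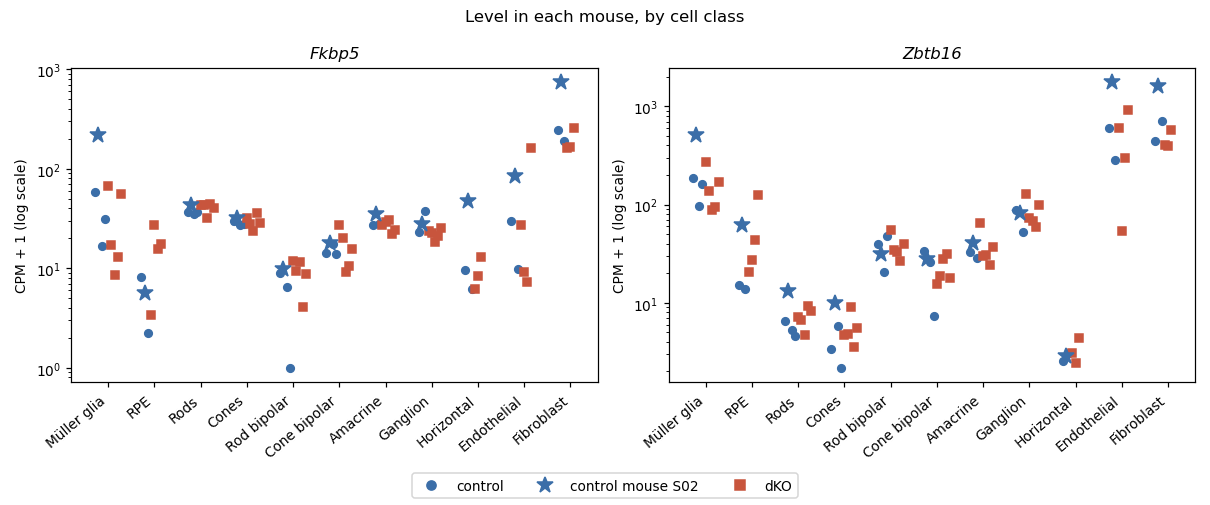
CPM + 1 of Fkbp5 (left) and Zbtb16 (right) in each mouse (log axis) in 11 cell classes, with control mice as circles, dKO mice as squares and control mouse S02 as a star. For Fkbp5, S02 lies apart from the other mice in Müller glia, horizontal cells and fibroblasts and among them in rods and cones.

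Zbtb16 followed Fkbp5 over the mice in Müller glia. It was at 188 CPM in S01, 507 CPM in S02, 96.8 CPM in S03 and 163 CPM in S04, and at 271 CPM in S05, 138 CPM in S06, 87.4 CPM in S07, 93.7 CPM in S08 and 168 CPM in S09. Correlations with Fkbp5 in Müller glia are a description with no p, since its spread over these mice was known when the genes were chosen. The 9 mice had the same order for both genes, with Pearson's r = 0.96 and Spearman's rho = 1.0. Without S02 and S07, the mice farthest from the median of Fkbp5, r was 0.90, and in the 6 mice other than S04, S05 and S07 it was 0.96. Centred within each group, r was also 0.96.

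With the rod level of both genes in each mouse subtracted, r was 0.76. Zbtb16 in rods, which is low, was 12.3 CPM in S02 and 3.58 to 8.26 CPM in the other 8 mice. The endothelial cells of S02 held 1778 CPM of Zbtb16, against 53.5 to 918 CPM in 6 mice, its fibroblasts 1601 CPM, against 399 to 711 CPM in 5 mice, and its pericytes 742 CPM, against 80.4 to 285 CPM in 4 mice. S02 was thus the highest mouse for Zbtb16 in Müller glia, endothelial cells, fibroblasts and pericytes. In rod bipolar cells it was at 30.4 CPM, within the 19.8 to 53.8 CPM of the others.

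The other 8 correlations with Fkbp5 in Müller glia were smaller. Pearson's r was 0.66 for Fam107a, 0.64 for Klf9, 0.51 for Cdkn1a, 0.49 for Ddit4, 0.46 for Tsc22d3, 0.41 for Sgk1 and 0.35 for Errfi1. Without S02 and S07, r for Fam107a was -0.04, for Klf9 0.07 and for Ddit4 0.02. In the 6 mice other than S04, S05 and S07, which include S02, it was 0.66, 0.87 and 0.75. Without S02 alone it was 0.30, 0.46 and 0.26. Nr3c1, the receptor, had r = -0.32, and r = -0.80 in the 6 mice.

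Tsc22d3, at 17.6 CPM in S01, 31.0 CPM in S02, 11.3 CPM in S03, 41.7 CPM in S05, 15.1 CPM in S06, 6.03 CPM in S07, 7.25 CPM in S08 and 12.6 CPM in S09, was at 0 in S04, where 3 UMIs would be 15.2 CPM. Its rank correlation with Fkbp5 was rho = 0.78. Pearson's r was 0.46 with S04 and 0.83 without that mouse.

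**Figure D3:**
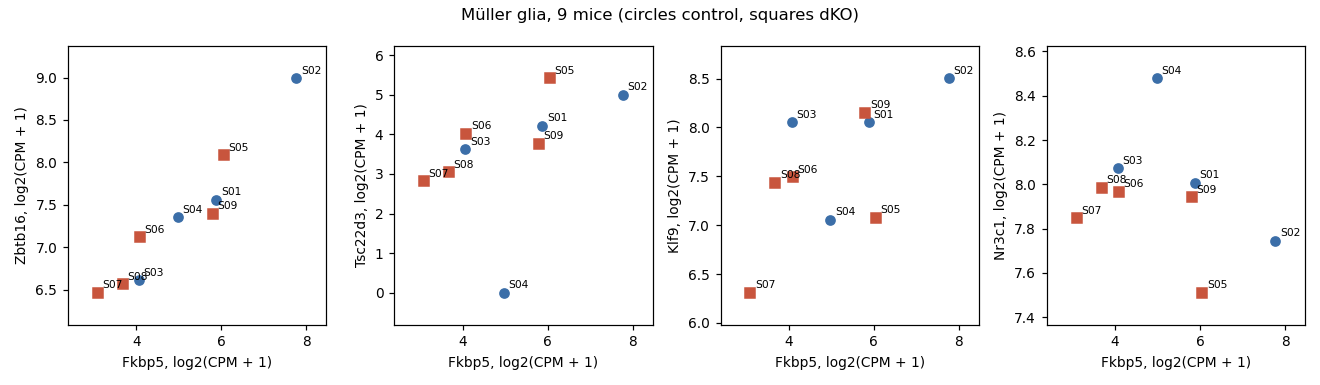
Log2(CPM + 1) of Zbtb16, Tsc22d3, Klf9 and Nr3c1 in Müller glia (vertical axes) against Fkbp5 (horizontal axes), with 1 point for each of 9 mice. Zbtb16 keeps the order of Fkbp5 in all 9 mice, Tsc22d3 is at 0 in S04, and Nr3c1 is lowest in S05 and S02.

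Klf9 was the gene for which S02 was most often the highest of the 6 mice other than S04, S05 and S07, in 9 of the 11 classes in which it was tested. In Müller glia Klf9 was at 361 CPM in S02, against 78.4 to 284 CPM in the other 8 mice, and in fibroblasts at 929 CPM, against 596 to 804 CPM in 5 mice. In rods it was at 137 CPM, against 100.2 to 136 CPM, so the gap there was small. Within Müller glia 8 of the 10 genes were highest in S02 among these 6 mice, against 2557 of 12995 genes tested (19.7%), the exceptions being Errfi1 and Nr3c1. In rods it was 3 of 9 tested, against 15.9% of all genes. S02 was singled out after its values were seen, and Fkbp5, whose spread was known beforehand, is among the 8. These shares are therefore a description. For Sgk1 in Müller glia, a single cell held 67.0% of the UMIs of S02. The level without that cell was 7.21 CPM, below the 8.15 CPM of S06, so Sgk1 is among the 8 only through it.

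Ddit4, Fam107a and Nr3c1 varied less than Fkbp5 over the mice in Müller glia, with SDs of 0.74, 0.66 and 0.26 against 1.47 on the log2(CPM + 1) scale. Ddit4 was at 57.9 CPM in S01, 70.3 CPM in S02, 60.1 CPM in S03 and 15.2 CPM in S04, and at 26.8 CPM in S05, 35.2 CPM in S06, 19.6 CPM in S07, 33.2 CPM in S08 and 49.9 CPM in S09. The groups of Ddit4 overlapped through S04, whose low value came from 3 UMIs. The other 3 control mice were above all dKO mice, but S04 was set aside after its value was seen. Such a split was not counted over all genes. Fam107a was at 58.6, 142, 76.6 and 30.5 CPM in control mice S01 to S04 and at 68.4, 64.4, 31.7, 48.8 and 50.4 CPM in dKO mice S05 to S09, with S02 the highest and S04 and S07 the lowest. Nr3c1 was at 256, 214, 268 and 355 CPM in control mice and at 181, 249, 229, 252 and 245 CPM in dKO mice, and its highest value was 1.96 times its lowest.

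In the vascular and stromal classes the genes differed in which mouse was high. Errfi1 in fibroblasts was at 126.1 CPM in S01 and 85.6 CPM in S02, against 383 to 831 CPM in S03, S06, S08 and S09, so S02 was the lowest mouse there. Its pericyte level was between 184 CPM in S09 and 1320 CPM in S06 over 5 mice. Cdkn1a in endothelial cells was at 265 CPM in S02 from 44 UMIs, against 41.1 to 138 CPM in 6 mice, and Tsc22d3 in endothelial cells was at 187 CPM in S02, against 28.8 to 127 CPM. In fibroblasts, S02 with 52.7 CPM of Cdkn1a was within the 40.1 to 74.3 CPM of the others.

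Fkbp5 in Müller glia was set against Fkbp5 in each of 10 other classes over the mice. Pearson's r was 0.95 with fibroblasts over 6 mice, 0.92 with horizontal cells over 6 mice and 0.81 with endothelial cells over 7 mice, and Spearman's rho was 0.77, 0.77 and 0.86. Without the 2 mice farthest from the median, r was 0.95, 0.93 and 0.92, over only 4, 4 and 5 mice. With rods r was 0.42 and -0.13 without the 2 farthest mice, and with RPE it was -0.17.

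The genes most like Fkbp5 over the 9 mice in Müller glia were ranked by Pearson's r among 6603 genes with a mean of at least 20 CPM, as a description. Zhx3 was the first with r = 0.96, followed by Zbtb16 with 0.96, Irf2 with 0.96, Folh1 with 0.94, Galnt18 with 0.92, Hif3a with 0.92, Dlg5 with 0.91, Fam171b with 0.91, Egfr with 0.90 and Mapk4 with 0.89. Hif3a, an oxygen-responsive regulator that is also on the list of other glucocorticoid-induced genes, was at 309 CPM in S02 against a median of 146 CPM in the other mice, and Mapk4 at 581 CPM against 276 CPM. Fam107a ranked 136, Klf9 161 and Nr3c1 5253 among the same genes. In rods, the 10 most alike were Heatr3, Orc5, Clasp2, Psmf1, Pi4kb, Senp1, Abi1, Osbpl11, Slc25a46 and Ints9, with r from 0.92 to 0.84, and no member was among them.

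Other lists of the pathway were read in the same Müller glia. Of 24 other glucocorticoid-induced genes 17 were tested, and 11 of these were highest in S02 among the 6 mice (64.7%, against 19.7% of all genes tested), among them Mertk, a receptor of phagocytosis, at 529 CPM in S02 against 267 to 333 CPM in the rest of the 9 mice. This share is a description too, since S02 was singled out after its values were seen. The summed list was not highest in S02, at 8810 CPM there and 8047 to 9522 CPM over the 6 mice. Its most abundant gene Glul, which encodes glutamine synthetase, was at 6588 CPM in S02, within the 6334 to 7768 CPM of the 6 mice, and Per1, a clock gene, at 310 CPM, the lowest of 6 mice that reached 434 CPM. Of the clock list 1 of 15 genes was highest in S02, of the receptor machinery 1 of 13, and of the immediate early and dissociation stress genes 0 of 12.

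The summed immediate early and dissociation stress list in Müller glia was 2830 CPM in S02 and 3233 to 4064 CPM in the other 5 of these mice. It was 868 CPM in S04, 1160 CPM in S05 and 1907 CPM in S07. Fosb was the most abundant gene of that list and was at 712 CPM in S02, the lowest of the 6 mice, which reached 1046 CPM. The mouse with the most Fkbp5 thus had the least of this list among the 6. The part of handling in either list was not tested. Among the receptor machinery, Ncoa1, a coactivator, ranged from 758 to 934 CPM, Ncor1, a corepressor, from 594 to 741 CPM, and Nr3c2, the mineralocorticoid receptor, from 406 to 556 CPM over the 9 mice.

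Control and dKO mice were then compared in each class, to ask whether deletion in the RPE was accompanied by a change of these genes. In Müller glia all 10 genes had a fold change below 0 in the fit, with a median log2 fold change of -0.67 against 0.00 over all 12995 genes tested, and 0 of 10 passed (quasi-likelihood test of edgeR, Benjamini-Hochberg adjusted p below 0.05). The share of all genes that passed was 0%. Ddit4 was at 50.9 ± 24.4 CPM (SD, n = 4) in control and 32.9 ± 11.3 CPM (n = 5) in dKO Müller glia, a log2 fold change of -0.72 with a standard error of 0.26. Fam107a was at 76.9 ± 47.2 and 52.8 ± 14.6 CPM, a log2 fold change of -0.72 with a standard error of 0.29, and both had an edgeR adjusted p of 1.0.

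Without S02 these became -0.59 and -0.26, and the median over the 10 genes was -0.27 with 9 of them below 0. The log2 fold change of Fkbp5 was -1.68 (standard error 0.70), from 80.4 ± 92.9 CPM to 31.1 ± 26.9 CPM, and it was -0.38 (standard error 0.60) without S02. Likewise Zbtb16 went from -0.80 to -0.03 and Sgk1 from -0.37 to 0.57 without that mouse. A single cell of S02 held 67.0% of its Sgk1 UMIs. For Tsc22d3 and Sgk1 the mean CPM was higher in dKO mice, at 16.5 and 12.7 CPM against 14.96 and 9.26 CPM. The highest dKO mouse for both was S05, a mouse with 28 Müller glia, where a single cell held 81.8% of the Sgk1 UMIs. Errfi1 was at 50.5, 58.8, 54.2 and 71.1 CPM in the control mice and at 26.8, 31.6, 19.6, 59.1 and 51.8 CPM in the dKO mice S05 to S09. The groups overlapped through S08 and S09, and the log2 fold change was -0.44 (standard error 0.26, edgeR adjusted p = 1.0).

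**Figure D4:**
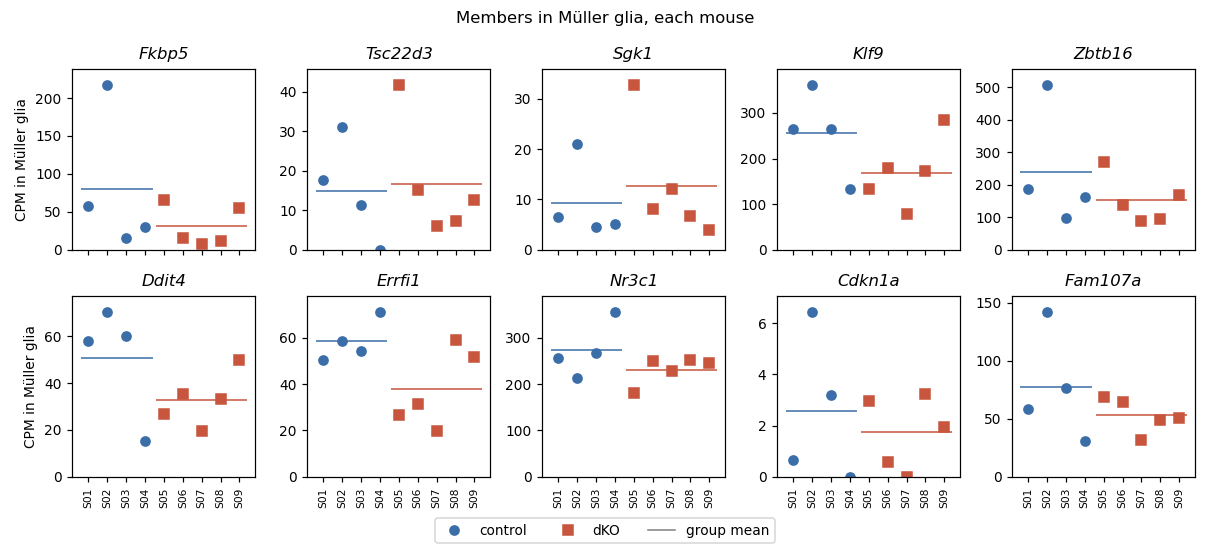
CPM of each of the 10 genes in Müller glia of each mouse, control as circles and dKO as squares, with the group means as lines. The groups overlap for all 10 genes, and S02 is the highest mouse for Fkbp5, Klf9, Zbtb16, Ddit4, Cdkn1a and Fam107a.

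The RPE is the class in which the microRNAs were deleted. It had 8 of the 10 genes tested, in 3 control and 4 dKO mice, and 0 passed, against 5 of 9092 genes (0.0550%). Tsc22d3 and Cdkn1a were too low for the filter. With no filter on low counts Cdkn1a passed, with a log2 fold change of 2.90 (edgeR adjusted p = 0.0302, 72 genes called). Its UMIs came from 2 dKO mice, 16 in S06 and 12 in S09, with 0 in S07 and S08 and 2, 2 and 0 in the control mice. Fold changes were below 0 for 6 and above 0 for 2, with a median of -0.23 against -0.01 over all genes tested. Errfi1 in RPE was at 49.2, 49.8 and 34.0 CPM in control mice S01 to S03. In dKO mice S06 to S09 it was at 32.1, 26.1, 31.6 and 20.3 CPM. Its log2 fold change was -0.61 (standard error 0.27, edgeR adjusted p = 1.0). The 26.1 CPM of S07 is 1 UMI in 12 cells, as are its values of Fkbp5, Zbtb16 and Ddit4. Without S07 the change of Errfi1 was -0.59.

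Fkbp5 in RPE was at 7.12, 4.69 and 1.21 CPM in control mice and at 2.40, 26.1, 14.7 and 16.6 CPM in dKO mice. Its log2 fold change of 1.16 (standard error 0.66, edgeR adjusted p = 1.0) had the opposite sign to that in Müller glia. It was 1.12 without S07, 0.72 without S03, 1.89 without S01 and 1.84 without S06. Zbtb16 in RPE was at 14.2, 61.0 and 12.8 CPM in control and 19.7, 26.1, 42.4 and 125.6 CPM in dKO mice, with S09 the highest, and its log2 fold change was 0.98 (standard error 0.57), which was 0.13 without S09 and 1.96 without S02. Endothelial markers, of a class with much Zbtb16, were at 0.00152% to 0.00231% of UMIs in control and 0.00239% to 0.0104% in dKO RPE, without overlap and with S07 the highest. Rod markers were at 0.0992% in S07 RPE and 0.0173% to 0.0246% in the other 6 mice. The part of other cells in these values was not tested. Sgk1, which was high in RPE, was at 938, 865 and 718 CPM in control and 881, 757, 595 and 465 CPM in dKO mice. Its groups overlapped, with log2 fold change -0.39 (standard error 0.24, edgeR adjusted p = 1.0).

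The difference between RPE and Müller glia in the change of Fkbp5 was 3.17 on the log2(CPM + 1) scale, given with no test. For Zbtb16 it was 1.67 (exact permutation of the group labels, two-sided, p = 0.0571 with a smallest possible p of 0.0286, adjusted 0.381 over 20 such differences), and for Errfi1 between Müller glia and rods -1.17 (exact p = 0.0317, adjusted 0.381). None of the 20 differences between classes passed after adjustment.

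In rods 9 of the 10 genes were tested and 0 passed, against 0% of 13809 genes. Fkbp5 was at 36.9 ± 3.4 CPM (SD, n = 4) in control and 39.6 ± 5.2 CPM (n = 5) in dKO rods, with log2 fold change 0.05 and standard error 0.11, and Nr3c1 at 323.8 ± 15.6 and 310.3 ± 16.9 CPM, with log2 fold change -0.10 and standard error 0.08. The median over the 9 genes was -0.10 against -0.02 over all genes tested. Errfi1, with fold changes below 0 in RPE and Müller glia, was at 11.1 ± 3.1 CPM in control and 15.3 ± 2.9 CPM in dKO rods, with log2 fold change 0.39 (standard error 0.21, edgeR adjusted p = 1.0).

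The other 8 classes tested gave no member that passed. The share of genes that passed was 0.0124% in horizontal cells and 0% in cones, rod bipolar, cone bipolar, amacrine, ganglion and endothelial cells and fibroblasts. In endothelial cells, where all 10 genes were tested in 3 control and 4 dKO mice, 7 were below 0, with a median of -0.55 against 0.01 over all genes, and the log2 fold change of Fam107a was -1.03 (standard error 0.41, edgeR adjusted p = 0.984). In horizontal cells Ddit4 was at 7.84 to 9.45 CPM in 3 control and 10.3 to 13.6 CPM in 3 dKO mice. These levels rest on few counts, with 15 UMIs in S02 and 56 in all other mice together. The groups lay apart, but 0 of the 5 members tested in horizontal cells had an unadjusted edgeR p below 0.05. The lowest adjusted p of a member there was 0.9997, and the share of all genes with groups apart was not counted. Of the 4 pathway lists, 0 genes passed in Müller glia, RPE or rods. In Müller glia 14 of 17 other glucocorticoid-induced genes were below 0 with a median of -0.30, against 9 of 18 in RPE and 9 of 15 in rods. In rods 14 of 15 clock genes were above 0 with a median of 0.15. The clock list went the other way elsewhere, with 12 of 15 below 0 in Müller glia and 9 of 14 in RPE. Of all genes tested, 49.7% in Müller glia, 50.7% in RPE and 54.3% in rods were below 0.

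**Figure D5:**
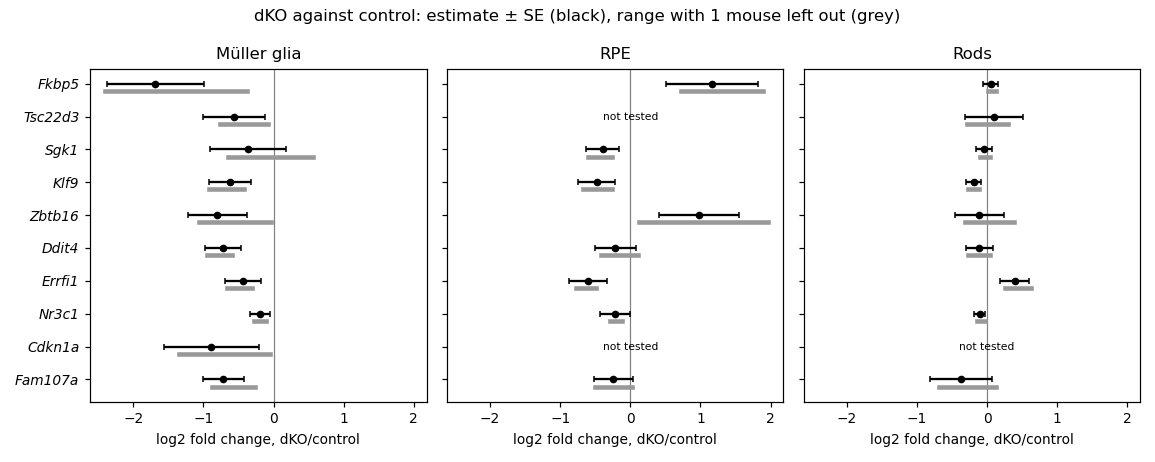
Log2 fold change of dKO against control for the 10 genes in Müller glia, RPE and rods, with the standard error as black bars and the range over fits that leave out 1 mouse each as grey bars. In Müller glia the grey bar of Sgk1 passes 0, and those of Zbtb16, Cdkn1a, Tsc22d3 and Nr3c1 end nearest to it, at -0.03, -0.05, -0.08 and -0.10, while that of Fkbp5 ends at -0.38. Genes too low for the filter are marked as not tested.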

How the data were processed

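The authors mapped reads of dissociated retina to GRCm39 with split-pipe, removed cells and genes with few counts, and deposited raw UMI counts for each gene and cell. Per the labels, R 4.2.2 and Seurat 4.3.0 were used afterwards. The other deposited columns name each cell's mouse and barcoding well. The counts were used as deposited, and free RNA was not removed.

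A cell was assigned to a class when at least 4 of its markers had a UMI, with at least 10 marker UMIs in all and 8 per 10000 UMIs, and when no further class passed. Cells passing several classes, which include doublets, were left out, and no doublet caller was run. Counts were summed for each mouse and class with at least 10 cells. Groups were compared with edgeR 4.0.16 (quasi-likelihood test, TMM, filterByExpr, R 4.3.3) over all genes, with adjusted p below 0.05 as the threshold. The fits were also tested on simulated data. Single values were compared on log2(CPM + 1) with exact tests, and correlations of Fkbp5 over mice are given as r and rho without their p. Intervals and limits of 0, taken as 3 counts, cover counting error only. The alternatives were DESeq2 1.42.0, library sizes without TMM, no filter on low counts, a stricter gate with 20 marker UMIs and 16 per 10000, a pseudocount of 5 CPM, each mouse left out, S06 and S07 summed, and S04, S05 and S07 left out together.

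The members and lists were chosen with earlier results of these data known. Besides the members, the named genes are up to 3 of each list with the highest mean CPM in Müller glia and the 10 genes most like Fkbp5 in Müller glia and in rods; Hif3a, also among these, stands on a list too. Sequences are from GENCODE on GRCm39 and RefSeq.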

Additional observations from a re-analysis of the deposited data

Results flagged for a closer look

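Of 50 sets of 4 or 5 mice of a group, for a member in Müller glia, RPE or rods, 5 had a mouse whose gap to the nearest other was above Dixon's critical value, and chance gives about 1 in 20. Sgk1 in Müller glia was at 21.0 CPM in control mouse S02, against 4.44 to 6.58 CPM in the other 3 control mice, and at 32.7 CPM in dKO mouse S05, against 3.87 to 12.1 CPM in the other 4 dKO mice. Tsc22d3 in Müller glia was at 41.7 CPM in S05, against 6.03 to 15.1 CPM in the other dKO mice, and in rods at 1.49 CPM in S02, against 2.61 to 2.80 CPM in the other control mice. Ddit4 in RPE was at 34.0 CPM in dKO mouse S06, against 25.9 to 26.2 CPM in the other 3, of which S07 holds 1 UMI. The Sgk1 and Tsc22d3 values of S05 rest on 28 Müller glia. A single cell held 67.0% of the Sgk1 UMIs of S02 Müller glia, and the level without it was 7.21 CPM. In S05 a single cell held 81.8% of 11 Sgk1 UMIs, and the level without it was 6.16 CPM. For Tsc22d3 in S05 the top cell held 21.4%, and the level without it was 34.3 CPM.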

How the results depend on the processing

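No paired analysis was possible because control and dKO mice share no replicate number in the labels. The number of genes called between dKO and control mice was 0 in Müller glia, and 1 with no filter on low counts, with a range of 0 to 1 when each mouse was left out. In rods it was 0, but 12 with DESeq2, 11 with no filter, and 0 to 2 with a mouse left out. In RPE it was 5, but 1 with DESeq2, 72 with no filter, and 0 with the stricter gate, with S06 and S07 summed, and without S04, S05 and S07. Leaving out a mouse in RPE gave 0 to 16, with 16 without control mouse S02, 10 without dKO mouse S06, 3 without S03, 1 without S01 or S08, and 0 without dKO mouse S07 or S09. The cause was not tested. At an unadjusted p below 0.05, 282 genes in Müller glia and 655 in rods passed with edgeR. Of the members, Cdkn1a was called in RPE with no filter on low counts (log2 fold change 2.90, edgeR adjusted p = 0.0302), and no member was called in these 3 classes under any other alternative run. The direction of a member's fold change differed from the value given in 4 of 147 alternative values in Müller glia, 2 of 102 in RPE and 11 of 135 in rods. The number of members that differed between Müller glia and rods was 7, and 5 to 9 with a mouse left out. It was not set against the share of all genes. Tsc22d3 and Klf9 lost the call without any 1 of S01, S02, S03, S05, S06, S08 or S09. The correlations with Fkbp5 are a description with no p. For Zbtb16 in Müller glia Pearson's r was 0.92 to 0.97 when a mouse was left out, and it was lower with the rod level subtracted. S04, with 17 Müller glia, limits each value it enters, since 3 UMIs there are 15.2 CPM.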
